A study of Mus musculus with 9 samples.

Results

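Expression of the mouse proteasome genes was followed in lung cell RNA, in wild-type animals and in animals without DJ-1, after an ovalbumin airway challenge. The members were all protein-coding genes whose symbol is Psm, a letter from a to g and a number, with or without a closing letter; 49 genes met this rule among 55851 genes in the deposited table, of which 21926 were protein-coding. They were sorted by role into 11 classes. Members with a mean of at least 0.2 FPKM (reads divided by gene length and library size, the authors' unit) over the 9 libraries were tested, which left 47 members; Psmb11 and Psme2b fell under that level.

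The 9 libraries formed 3 groups of 3, each from total lung cells of female C57BL/6J mice with a time label of 7 weeks. WT PBS (libraries 1, 2 and 3) came from wild-type mice given phosphate-buffered saline as the challenge, and WT OVA (libraries 5, 6 and 9) from wild-type mice given ovalbumin. The knockout group, DJ-1 KO OVA (DJ1_KO_OVA_263, then DJ1_KO_OVA_266, then DJ1_KO_OVA_267), came from knockouts of DJ-1 given ovalbumin; values below keep this order of libraries. Ovalbumin is an egg protein used as an allergen; DJ-1 is the product of Park7 and is linked to protection from oxidative stress. There was no knockout group given saline, so the loss of DJ-1 was compared under ovalbumin alone. The labels give neither the construct behind the knockout nor whether each library is 1 animal, so p-values measure the spread between libraries, which may be technical.

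The proteasome is the protease that degrades proteins tagged with ubiquitin. Its 20S core is a barrel with outer rings of alpha subunits, which gate entry, and inner rings of beta subunits, of which Psmb5, Psmb6 and Psmb7 carry the protease sites. The 19S cap, made of Psmc ATPases and Psmd non-ATPase subunits, binds ubiquitin chains, unfolds the substrate and opens the gate. In cells of the immune system, and elsewhere under interferon-gamma, the catalytic sites are replaced by Psmb8, Psmb9 and Psmb10, which form the immunoproteasome and favour peptides for MHC class I. The transcription factor Nfe2l1 is known to raise proteasome genes together through antioxidant response elements when proteasome activity falls short.

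The stretches before 4 of the genes are shown because Psmd2 and Psme4 were the members called in the comparison of genotypes, while Psmb5 and Psmb6 were catalytic members with a match to the antioxidant response element core. Each is the 120 bases just before the annotated gene start on the gene's own strand, from RefSeq (GRCm38.p6), and overlaps no annotated exon. For Psmb6 that start is the RefSeq one, which lies upstream of the start in the deposited table (70525367). Capitals mark a match to TGACNNNGC, searched on both strands, where N is any base.
Psmd2, chr16:20651532-20651651, plus strand: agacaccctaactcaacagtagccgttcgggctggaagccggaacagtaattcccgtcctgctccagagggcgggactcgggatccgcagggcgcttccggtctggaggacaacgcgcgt
Psme4, chr11:30771606-30771725, plus strand: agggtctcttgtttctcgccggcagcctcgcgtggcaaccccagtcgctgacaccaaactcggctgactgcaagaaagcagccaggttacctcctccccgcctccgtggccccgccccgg
Psmb5, chr14:54618023-54618142, minus strand: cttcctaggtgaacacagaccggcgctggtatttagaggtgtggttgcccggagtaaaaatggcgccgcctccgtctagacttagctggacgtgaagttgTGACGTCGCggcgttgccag
Psmb6, chr11:70525237-70525356, plus strand: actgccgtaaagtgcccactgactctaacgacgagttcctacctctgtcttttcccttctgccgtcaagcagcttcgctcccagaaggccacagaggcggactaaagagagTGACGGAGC
The Psmb5 match, TGACGTCGC, began 20 bases before the gene start and the Psmb6 match, TGACGGAGC, 9 bases before the RefSeq start. The Psmd2 and Psme4 stretches held no match in these 120 bases. RefSeq windows of 250 bases before a start were matched for 41 of 49 members (44 windows). In them TGACNNNGC occurred in 5 windows, or 11.4%, of Psmb5, Psmb6, Psmc6, Psmd12 and Psmd9, against 10.2% of 32851 windows of 27025 genes. The CCAAT box, CCAAT, occurred in 31.8% of member windows against 33.8% of all. The core of the interferon-stimulated response element was present in 6.82% of member windows (Psmb3, Psmd4 and Psmd9) against 2.98%, and that of the gamma-interferon activation site, TTCNNNGAA, in 4.55% (Psmb8 and Psmg1) against 7.02%. Overlaps between the 4 motifs were not removed, and a match is a description of letters, not a site.

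The libraries held between 20812192 and 29080130 reads, recovered from FPKM and gene length, with 12636 to 12983 genes at 1 FPKM or more. Park7 followed the genotype labels: it stood at 49.6, 53.8 and 36.7 FPKM in WT PBS, at 57.9, 53.1 and 60.5 FPKM in WT OVA and at 3.96, 7.29 and 3.98 FPKM in DJ-1 KO OVA (log2 difference between the ovalbumin groups -3.42, limma adjusted p = 0.00019). No marker of the leukocyte, T cell, macrophage, neutrophil, B cell, lung epithelium, endothelium or proliferation lists was at 0 in any library, so lung epithelium and endothelium were present beside leukocytes. Library DJ1_KO_OVA_266 stood apart from its group in the 20S genes below, and counts that rest on it are given with and without it. Of the 49 members, 23 overlap another annotated gene, and no source used here says whether strand entered the counting; Psmb9 overlaps Tap1 and Psme4 overlaps Gm12103 on the opposite strand, and Psmd1 overlaps 4 genes, while Psmd2 overlaps none.

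In saline-treated wild-type lung cells the members spanned a wide range of FPKM, which is a level per length. Psmb5 had the highest mean at 108.8 ± 15.0 FPKM (SD, n = 3), followed by the alpha subunit Psma6 at 101.5 ± 26.0 FPKM. The activator Psme1 at 92.5 ± 15.7 FPKM and the beta subunit Psmb4 at 92.3 ± 18.8 FPKM came next, ahead of Psmb6 at 74.0 ± 15.1 FPKM. Neighbours in this order of 5 genes differed by less than the larger of their SDs. Cap genes had lower means than these 5 genes, but many lay above core genes such as Psma3, at 23.8 ± 7.7 FPKM. Psmd8 led the non-ATPase subunits with 57.1 ± 9.79 FPKM, and Psmd1 and Psmd11 stood at 7.13 ± 0.383 and 6.35 ± 0.475 FPKM. In DJ-1 KO OVA the 5 leading genes of WT PBS were again the leading 5, with Psmb5 at 99.1 ± 41.9 FPKM, Psma6 at 92.5 ± 24.2 FPKM, Psmb4 at 81.3 ± 31.4 FPKM, Psme1 at 76.3 ± 24.2 FPKM and Psmb6 at 69.5 ± 32.1 FPKM.

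Members known for other tissues were near the limit of detection. Psma8, the alpha subunit of testis, had 6 to 30 reads per library, or 0.122 to 0.492 FPKM. Psmb11, the catalytic subunit of the thymus cortex, had 3 reads in all, in 2 libraries; a count of 0 allows up to 3 reads, which is 0.0204 to 0.0326 FPKM over the 7 libraries without a read. Psme2b, a near copy of Psme2, had 15 reads over 5 libraries, and reads could be split between these copies. The 19S assembly chaperone Psmd10 was also low, at 0.198 to 1.34 FPKM, and its highest value was that of WT OVA library 6 with 45 reads.

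**Figure D1:**
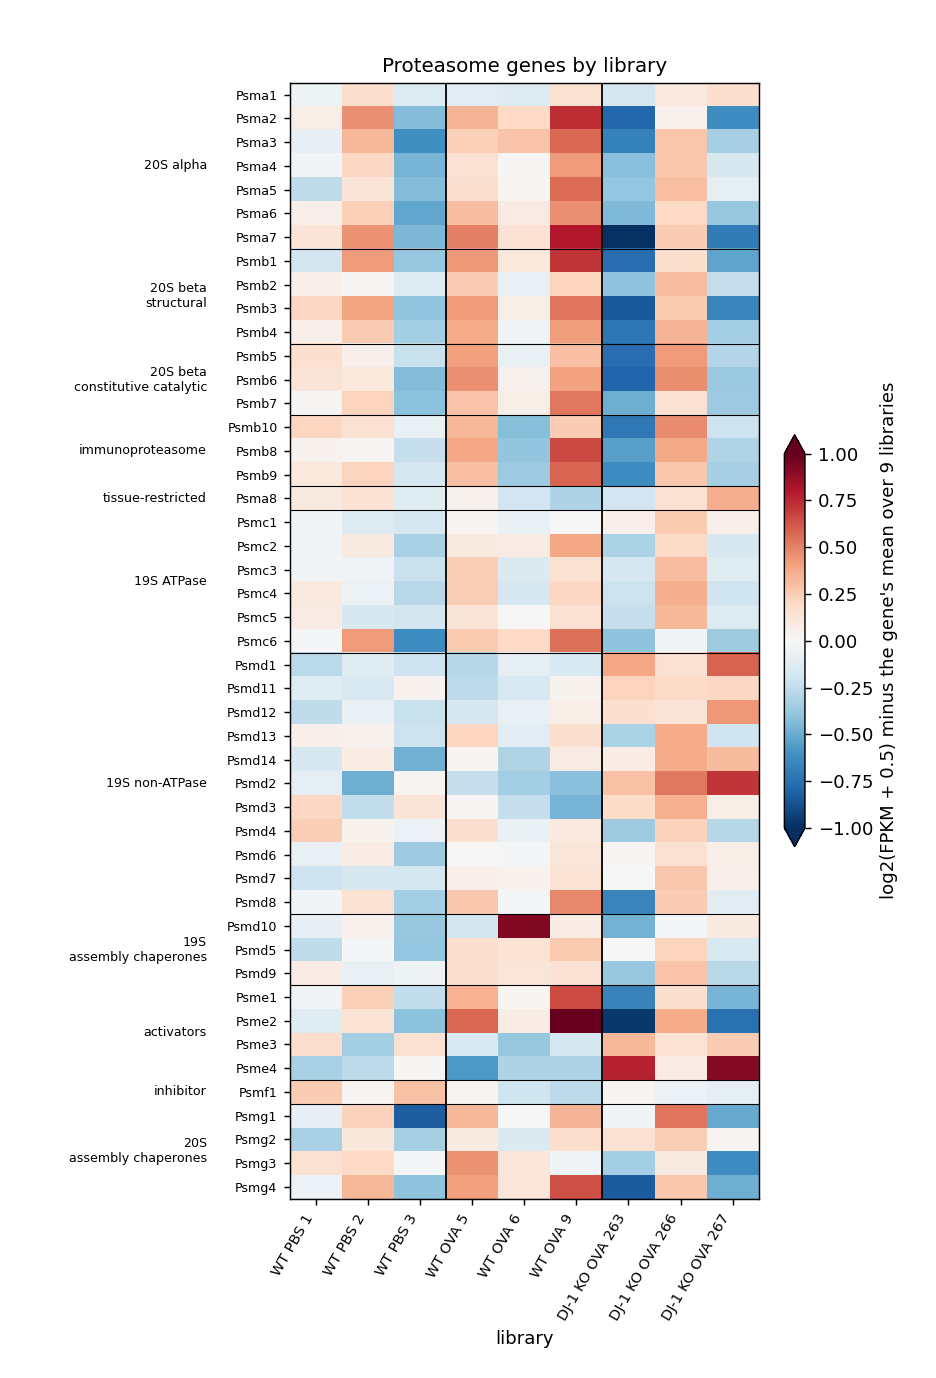
Level of each tested member (rows, grouped by role) in each of the 9 libraries (columns), as log2(FPKM + 0.5) minus the gene's mean over the 9 libraries, on the authors' scale; colours end at -1 and 1. Libraries DJ1_KO_OVA_263, DJ1_KO_OVA_267 and WT PBS 3 are blue over most 20S rows and WT OVA 9 is red, while Psmd1, Psmd2 and Psme4 are red in the knockout libraries.

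Ovalbumin against saline in wild-type mice addressed the response to the allergen. No proteasome gene passed limma's adjusted p of 0.05 in this comparison, where 0.00564% of all 17716 genes tested did (1 gene). One member, Psmd5, had an unadjusted p under 0.05, against 6.47% of all genes, and limma-voom on the recovered reads called 0 members. The log2 difference was positive for 37 of 47 members, with a median of 0.21 against 0.00 over all genes; with the FPKM of each library scaled to an equal sum, the median of the members was -0.10 and that of all genes -0.22. Groups did not overlap for 3 members, all higher with ovalbumin (Psmd5, Psmd7 and Psmd9), against 7.25% of all genes; 0 members were lower without overlap, against 7.52%.

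Psmd5, a chaperone of 19S base assembly, was at 3.26, 3.94 and 2.93 FPKM in WT PBS and at 4.55, 4.43 and 4.87 FPKM in WT OVA. All 3 ovalbumin libraries lay above all 3 saline libraries, with a log2 difference of 0.41 (SE 0.18, limma adjusted p = 0.729). The PA28 activator gene Psme2, which interferon-gamma is known to induce, had the larger difference of means, from 53.7, 64.4 and 43.9 FPKM to 87.1, 61.5 and 123.5 FPKM. Library 6 lay within the saline range, and the log2 difference of 0.70 (SE 0.37) had a limma adjusted p of 0.729. By class, the median log2 difference was 0.40 for the 7 alpha subunits, 0.27 for the structural beta subunits, 0.35 for the constitutive catalytic subunits, 0.12 for the immunoproteasome, 0.18 for the 19S ATPases and 0.12 for the 19S non-ATPases. The median of the 14 constitutive 20S genes went from 0.36 to 0.045 with equal FPKM sums, and medians turned to -0.04 for the structural beta subunits, -0.18 for the immunoproteasome, -0.13 for the 19S ATPases and -0.18 for the 19S non-ATPases. Without WT PBS library 3, the medians of the 20S genes and the 19S non-ATPases were 0.15 and 0.022.

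Loss of DJ-1 under ovalbumin was addressed by DJ-1 KO OVA against WT OVA. Psmd2 and Psme4 were higher in the knockout and no member was lower, which is 4.26% of the 47 members against 14.2% of all genes tested (5.93% higher and 8.24% lower). At an unadjusted p under 0.05 there were 12 members, against 35.2% of all genes, and limma-voom on recovered reads also called 2 members. On the authors' scale with all libraries, the share of members called was therefore below the background. That share was 34% against 32.1% of all genes without DJ1_KO_OVA_266, and 27.7% against 28.2% with equal FPKM sums. The log2 difference was negative for 32 of 47 members, with a median of -0.24 against 0.00 for all genes; with equal FPKM sums the medians were 0.37 and 0.46, and 39 members were positive. Groups did not overlap for 8 members higher in the knockout (Psmc1, Psmd1, Psmd2, Psmd3, Psmd11, Psmd12, Psme3 and Psme4), where 18.4% of all genes did so, and for 2 members lower (Psma2 and Psmc6), where 18.8% of all genes did so.

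Psmd2 encodes Rpn1, the scaffold of the 19S base that docks ubiquitin shuttles. Its transcript stood at 31.5, 23.7 and 34.2 FPKM in WT PBS libraries 1, 2 and 3, at 28.4, 26.2 and 25.01 FPKM in WT OVA libraries 5, 6 and 9, and at 41.3, 48.6 and 55.5 FPKM in the 3 knockout libraries. Every knockout library lay above all 6 wild-type libraries. The mean rose from 26.6 ± 1.74 to 48.4 ± 7.10 FPKM (SD, n = 3 each), and the fitted difference of log2(FPKM + 0.5) was 0.85 (SE 0.20, limma adjusted p = 0.0276). Between 1968 and 5735 reads per library stood behind these values.

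Psme4 encodes PA200, an activator that caps the core without ubiquitin and is known for the degradation of acetylated histones. It stood at 3.51, 3.68 and 4.56 FPKM in WT PBS, at 2.87, 3.54 and 3.54 FPKM in WT OVA and at 8.06, 4.77 and 8.96 FPKM in DJ-1 KO OVA. Library DJ1_KO_OVA_266 was close to the wild-type range, and the other knockout libraries were well above it. The mean rose from 3.31 ± 0.389 to 7.26 ± 2.20 FPKM, with a fitted log2 difference of 0.99 (SE 0.24, limma adjusted p = 0.0275).

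Over the settings tried, the log2 difference stayed between 0.75 and 1.46 for Psmd2 and between 0.67 and 1.55 for Psme4, but both calls were lost under some of them. Leaving out any one WT OVA library moved the limma adjusted p of Psmd2 to 0.0719 to 0.0941 and that of Psme4 to 0.0718 to 0.0927. Without DJ1_KO_OVA_267 it was 0.113 for Psmd2 and 0.114 for Psme4, and without DJ1_KO_OVA_263 it was 0.0721 for Psme4. With no filter on low values neither was called (limma adjusted p = 0.0506 for Psmd2 and 0.0663 for Psme4), and in a fit of the 2 ovalbumin groups alone Psme4 was at 0.0579.

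**Figure D2:**
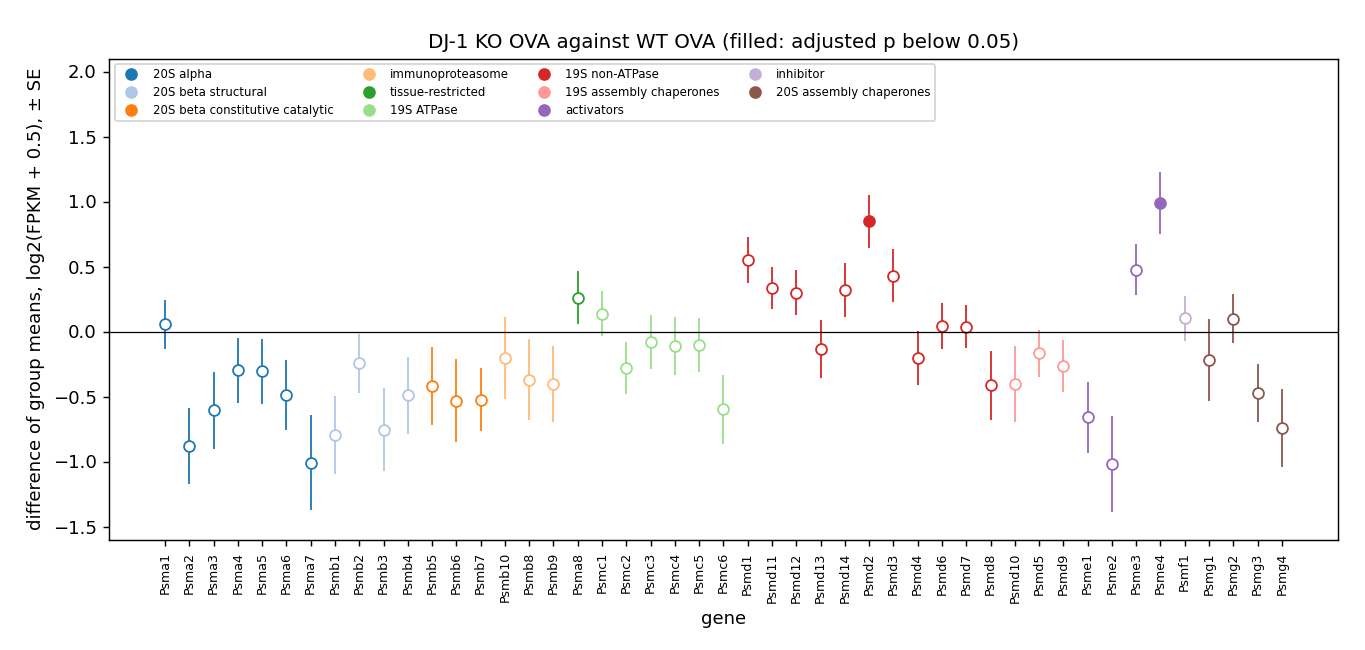
Log2 difference of each tested member between DJ-1 KO OVA and WT OVA, as limma fitted it on log2(FPKM + 0.5), with bars for ± SE and colour for role; filled points passed an adjusted p of 0.05. Psmd2 (0.85) and Psme4 (0.99) are filled; 13 of 14 constitutive 20S genes lie below 0 on the authors' scale, and 4 of 14 with equal FPKM sums.

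The 19S non-ATPase genes, Psmd2 among them, split. Of the 11, 8 had a positive log2 difference and 3 a negative one, with a median of 0.30; with equal FPKM sums all 11 were positive with a median of 0.90. Psmd1, the Rpn2 scaffold that pairs with Rpn1, was at 6.70, 7.74 and 7.39 FPKM in WT OVA and at 10.9, 9.22 and 12.7 FPKM in DJ-1 KO OVA. The groups did not overlap, and the log2 difference of 0.55 (SE 0.18) had a limma adjusted p of 0.0593. The lid subunit Psmd3 went from 18.95, 15.9 and 13.5 FPKM to 21.4, 24.2 and 19.5 FPKM (0.43, SE 0.20, limma adjusted p = 0.157). Psmd11, the lid subunit Rpn6, was at 5.53, 6.00 and 6.91 FPKM against 7.96, 7.74 and 7.85 FPKM (0.33, SE 0.16, limma adjusted p = 0.171). These 3 genes were higher in every knockout library than in any WT OVA library without passing the test. Psmd7, also of the lid, had the largest p of its class, at 28.5, 28.1 and 30.3 FPKM against 27.6, 33.2 and 28.5 FPKM (limma adjusted p = 0.898). The 3 negative genes were Psmd8 (-0.41, SE 0.27, limma adjusted p = 0.286), Psmd4 (-0.20, limma adjusted p = 0.507) and Psmd13 (-0.13, limma adjusted p = 0.691). For Psmd8, libraries DJ1_KO_OVA_263 and DJ1_KO_OVA_267 lay below every WT OVA library, and library DJ1_KO_OVA_266 lay inside the WT OVA range.

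Among the 6 ATPases of the 19S base the median log2 difference was -0.11, and none was called. Psmc6 was at 27.0, 25.9 and 33.0 FPKM in WT OVA and at 16.8, 22.01 and 17.4 FPKM in DJ-1 KO OVA, with a log2 difference of -0.60 (SE 0.26, limma adjusted p = 0.133). Its groups did not overlap, but WT PBS library 3, at 14.3 FPKM, lay below all knockout libraries. Psmc1 was at 44.9, 42.5 and 44.4 FPKM against 46.0, 53.4 and 46.0 FPKM (0.14, SE 0.17, limma adjusted p = 0.59). Psmc2 spanned 17.4 to 21.6 FPKM in WT OVA and 13.1 to 18.8 FPKM in DJ-1 KO OVA, and Psmc3, with the largest p of the class, 40.7 to 53.4 and 39.9 to 55.8 FPKM.

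The alpha ring genes of the 20S core had a median log2 difference of -0.49, with 6 of 7 negative and none called. Psma2 stood at 56.9, 51.4 and 74.9 FPKM in WT OVA and at 25.8, 46.1 and 28.9 FPKM in DJ-1 KO OVA (log2 difference -0.88, SE 0.29, limma adjusted p = 0.0656). Psma7 stood at 90.4, 70.2 and 110.8 FPKM against 28.6, 75.8 and 38.9 FPKM (-1.01, SE 0.36, limma adjusted p = 0.0803). In both, libraries DJ1_KO_OVA_263 and DJ1_KO_OVA_267 were far below every WT OVA library, and library DJ1_KO_OVA_266 was near or inside the WT OVA range. Psma3 showed the same layout, with 29.5, 30.5 and 37.4 FPKM against 15.5, 30.4 and 19.7 FPKM (-0.61, SE 0.29, limma adjusted p = 0.166). Psma1 was the exception, at 28.8, 28.2 and 34.6 FPKM against 27.4, 33.2 and 34.8 FPKM (0.06, SE 0.19, limma adjusted p = 0.852).

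All 4 structural beta genes had a negative difference, with a median of -0.62, and none was called. Psmb1 stood at 58.9, 46.8 and 71.5 FPKM in WT OVA and at 25.4, 48.8 and 30.0 FPKM in DJ-1 KO OVA (-0.79, SE 0.30, limma adjusted p = 0.0915). Psmb3 stood at 81.8, 63.9 and 88.4 FPKM against 33.7, 73.1 and 38.4 FPKM (-0.76, SE 0.32, limma adjusted p = 0.12). Library DJ1_KO_OVA_266 again lay inside the WT OVA range. Psmb4 (-0.49) and Psmb2 (-0.24) had limma adjusted p of 0.255 and 0.463; with equal FPKM sums they turned to 0.13 and 0.37.

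Psmb5, the chymotrypsin-like site and the gene whose upstream TGACGTCGC is shown above, stood at 122, 112 and 92.4 FPKM in WT PBS, at 144, 102 and 133 FPKM in WT OVA and at 63.6, 145 and 88.4 FPKM in DJ-1 KO OVA. The knockout group held both the lowest and the highest of the 9 values. Psmb6, the caspase-like site, followed it, with 83.4, 82.0 and 56.5 FPKM, 105, 78.7 and 101 FPKM, and 43.9, 105 and 59.1 FPKM in the same order of groups. Psmb7, the trypsin-like site, stood at 27.7, 32.1 and 20.5 FPKM, at 33.5, 28.6 and 39.8 FPKM, and at 19.4, 30.6 and 21.2 FPKM. Log2 differences between the ovalbumin groups were -0.42, -0.53 and -0.52, with SEs of 0.30, 0.32 and 0.24 and limma adjusted p of 0.34, 0.251 and 0.152. With equal FPKM sums they were 0.20, 0.085 and 0.085.

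The immunoproteasome genes had no call either. Psmb8 (17:34197721-34201454, GRCm38) stood at 44.4, 43.8 and 36.8 FPKM in WT PBS, at 56.8, 32.8 and 68.6 FPKM in WT OVA and at 29.6, 56.6 and 35.0 FPKM in DJ-1 KO OVA. Psmb9 (17:34181987-34187764), which lies beside it with Tap1 and Tap2 in the MHC region, stood at 21.8, 23.8 and 18.0 FPKM, at 25.1, 15.7 and 30.7 FPKM and at 12.9, 24.6 and 16.0 FPKM. Psmb10, on chromosome 8, stood at 75.2, 72.1 and 61.4 FPKM, at 81.8, 48.0 and 77.2 FPKM and at 39.2, 90.2 and 55.9 FPKM. WT OVA library 6 was the low one of its group in all 3 genes, and library DJ1_KO_OVA_266 the high one of its group. Log2 differences between the ovalbumin groups were -0.37 for Psmb8, -0.40 for Psmb9 and -0.20 for Psmb10, with SEs of 0.31, 0.29 and 0.32 and limma adjusted p of 0.412, 0.34 and 0.671. With equal FPKM sums they were 0.24, 0.20 and 0.41.

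Each immunoproteasome subunit was then set against the constitutive subunit it replaces within a library, as a log2 ratio of FPKM + 0.5. In WT PBS Psmb8 to Psmb5 was -1.37 ± 0.07 (SD, n = 3), with -1.30 ± 0.34 under ovalbumin in the wild type and -1.26 ± 0.14 in the knockout. Psmb9 to Psmb6 was, in the same order, -1.77 ± 0.14, -2.01 ± 0.30 and -1.88 ± 0.18, and Psmb10 to Psmb7 was 1.38 ± 0.21, 0.99 ± 0.27 and 1.31 ± 0.28. The 3 ratios in 3 comparisons gave 9 two-sided exact permutation tests, with p from 0.2 to 0.9 and a Benjamini-Hochberg adjusted p of 0.9 for each. With 3 libraries against 3 the smallest p such a test can give is 0.1. As a share of the summed FPKM of the 6 catalytic genes, the immunoproteasome made up 38.9 ± 1.56%, 35.8 ± 3.93% and 38.6 ± 0.695% in the 3 groups in that order. Libraries ranged from 31.5% (WT OVA 6) to 40.7% (WT PBS 3), and the groups overlapped.

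**Figure D3:**
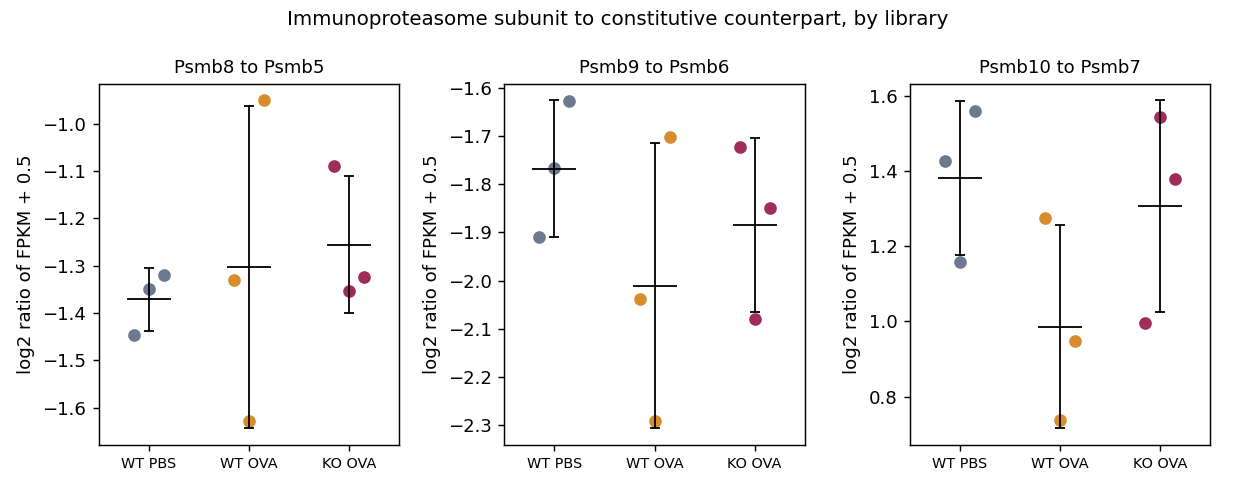
Log2 ratio of FPKM + 0.5 of Psmb8 to Psmb5, Psmb9 to Psmb6 and Psmb10 to Psmb7; points are libraries, horizontal marks are means and bars are SDs of 3 libraries, and the axes do not start at 0. The 3 groups overlap in each panel, and the WT OVA means of the last 2 ratios (-2.01 and 0.99) are the lowest.

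The activators went in opposite directions. Psme1 and Psme2 encode the PA28 ring that interferon-gamma induces; they lie on chromosome 14 at 55578123-55581529 and 55587441-55591113. Psme1 stood at 118, 93.6 and 145 FPKM in WT OVA and at 58.1, 104 and 66.9 FPKM in DJ-1 KO OVA (-0.66, SE 0.27, limma adjusted p = 0.116), and at 90.3, 109 and 77.9 FPKM in WT PBS. Psme2 stood at 29.7, 75.9 and 34.7 FPKM in DJ-1 KO OVA, with a log2 difference from WT OVA of -1.02 (SE 0.37, limma adjusted p = 0.0804). Psme3, the nuclear relative PA28 gamma, stood at 30.1, 20.9 and 29.6 FPKM in WT PBS, at 23.8, 20.3 and 23.6 FPKM in WT OVA and at 33.4, 29.3 and 31.8 FPKM in DJ-1 KO OVA (0.47, SE 0.20, limma adjusted p = 0.115). Its ovalbumin groups did not overlap, but library DJ1_KO_OVA_266 lay within the WT PBS range. The inhibitor gene Psmf1 stood at 4.95, 4.14 and 5.10 FPKM, at 4.17, 3.48 and 3.32 FPKM and at 4.15, 3.91 and 3.78 FPKM (0.10, SE 0.17, limma adjusted p = 0.703).

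Assembly chaperones of the core and cap were not called. Psmg4, which acts in alpha ring assembly, was at 46.0, 37.8 and 54.3 FPKM in WT OVA and at 19.2, 41.8 and 24.5 FPKM in DJ-1 KO OVA (-0.74, SE 0.30, limma adjusted p = 0.111). Library DJ1_KO_OVA_266 was once more the high one of the knockout group. Psmg3 ranged from 1.93 to 2.88 FPKM in WT OVA and from 1.12 to 2.14 FPKM in DJ-1 KO OVA, Psmg1 from 9.48 to 12.2 and from 6.54 to 13.99 FPKM, and Psmg2 from 7.08 to 8.98 and from 8.02 to 9.41 FPKM. The 19S base chaperones Psmd5 and Psmd9 ranged from 4.43 to 4.87 and from 4.19 to 4.31 FPKM in WT OVA, and from 3.53 to 4.72 and from 2.82 to 4.76 FPKM in DJ-1 KO OVA.

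**Figure D4:**
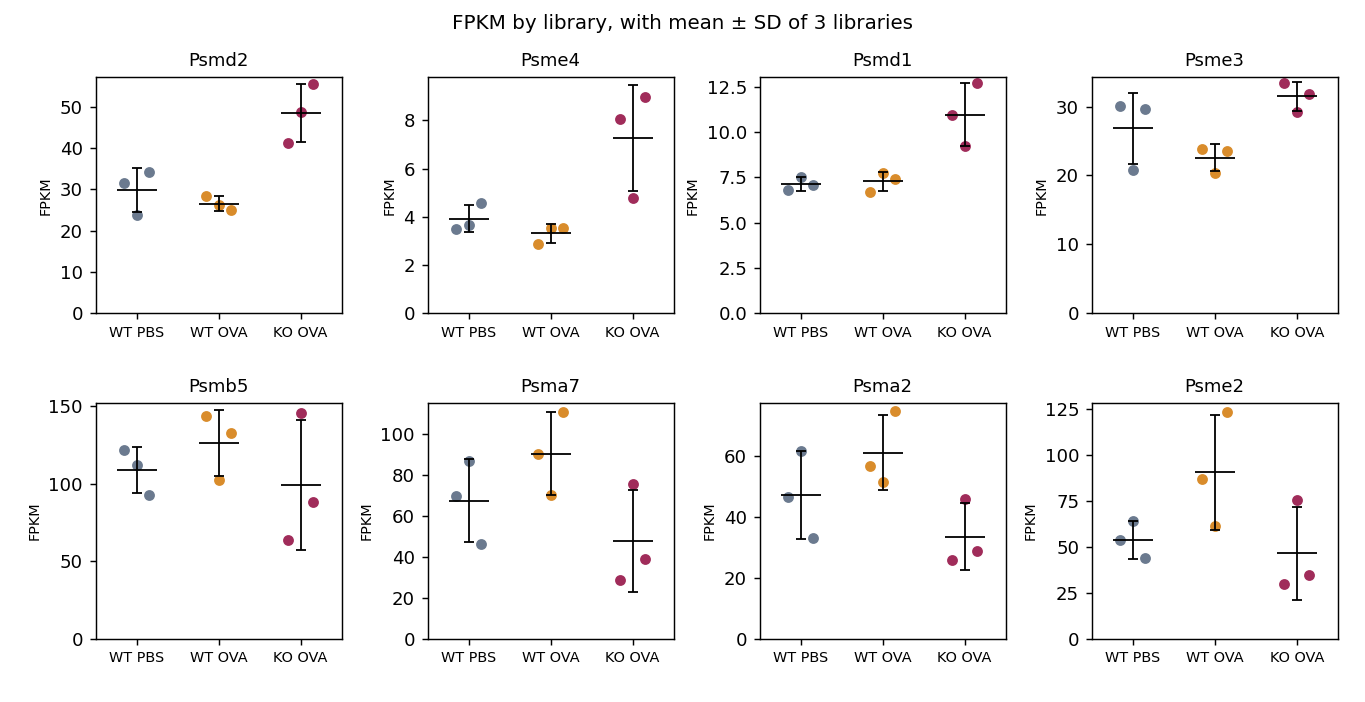
FPKM of 8 members by group; points are libraries (in the order of their replicate numbers from left to right within a group), horizontal marks are means and bars SDs of 3 libraries, on linear axes from 0. In the upper row (Psmd2, Psme4, Psmd1, Psme3) every knockout library lies above every WT OVA library; in the lower row (Psmb5, Psma7, Psma2, Psme2) the middle knockout point, library DJ1_KO_OVA_266, is the highest of its group.

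The balance between core and non-ATPase cap genes was described within each library, where no scaling between libraries enters beyond the constant of 0.5. The mean log2 level of the 14 constitutive 20S genes minus that of the 11 non-ATPase 19S genes was 1.44, 1.68 and 1.14 in the WT PBS libraries, against 1.68, 1.53 and 1.83 in those of WT OVA and 0.72, 1.34 and 0.84 in the knockout libraries. The knockout libraries lay below every WT OVA library, while library DJ1_KO_OVA_266 lay above WT PBS library 3. Group means were 1.42 ± 0.27, 1.68 ± 0.15 and 0.97 ± 0.33 (SD, n = 3), given as a description without a test, since both lists were looked at with earlier results known. Between the ovalbumin groups, the median log2 difference was -0.51 for the 14 core genes and 0.30 for the 11 non-ATPase cap genes. The 6 cap ATPases, left out of this balance, had a median of -0.11. The gap of 0.81 between core and non-ATPase genes ranged from 0.46 to 1.02 over 16 settings of the analysis. It was lowest under quantile normalization and highest without library DJ1_KO_OVA_266.

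The number of members called moved with library DJ1_KO_OVA_266 and with the scaling, as did the number over all genes. Without that library, 3 members were higher (Psmd1, Psmd2 and Psme4) and 13 lower (Psma2, Psma3, Psma7, Psmb1, Psmb3 to Psmb7, Psme1, Psme2, Psmg3 and Psmg4), or 34% of members against 32.1% of all genes. By direction, 6.38% of members were higher against 15.4% of all genes, and 27.7% lower against 16.8%. With equal FPKM sums 13 members were higher and 0 lower, against 28.2% of all genes (24.9% higher and 3.34% lower). The higher members were Psma1, Psmc1, Psmd1, Psmd2, Psmd3, Psmd6, Psmd7, Psmd11, Psmd12, Psmd14, Psme3, Psme4 and Psmg2. Psmd1, Psmd2 and Psme4 were higher under both. Without DJ1_KO_OVA_266, the limma adjusted p was 0.01 for Psma7, 0.00859 for Psme2 and 0.0464 for Psmb5.

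Gene length moved with this comparison. Over all genes tested, the median log2 difference between DJ-1 KO OVA and WT OVA was -0.39 for the 4427 genes shorter than 1607 bases and 0.35 for the 4429 longer than 5855 bases. The median length was 2335 bases for the 14 core genes and 3057 bases for the 11 non-ATPase cap genes. Across the 47 members, Pearson's r between log2 length and the difference was 0.37 (Spearman's rho 0.25), a description across genes of the same libraries. With the length trend of all genes removed from each library, r was -0.12, the core median was -0.21 and the non-ATPase cap median 0.27. Psmd2 and Psme4 were again the members called with that trend removed. The slope on log2 length was 0.11 and 0.12 in libraries DJ1_KO_OVA_263 and DJ1_KO_OVA_267, -0.01 in library DJ1_KO_OVA_266 and -0.09 to -0.03 in WT OVA.

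**Figure D5:**
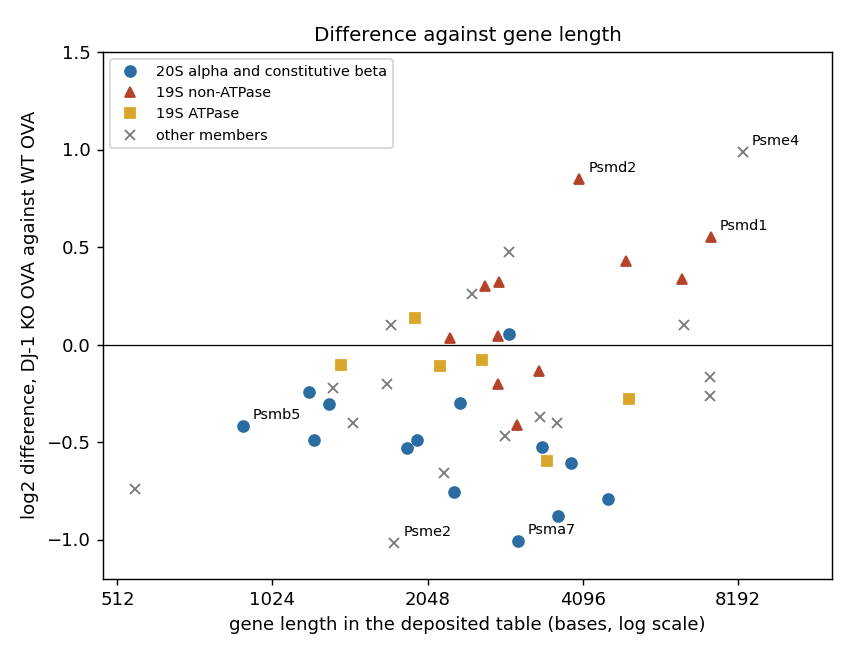
Log2 difference between DJ-1 KO OVA and WT OVA against gene length in bases (log axis) for the 47 tested members, on the authors' scale; symbols mark the role. Psme4, Psmd1 and Psmd2 are among the longer genes and lie above 0, while Psma7 and Psme2 lie near -1 at lengths that other members near 0 share.

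Cell markers also moved between the ovalbumin groups, and their part in the values above was not tested. By limma, 6 of 8 neutrophil markers were lower in DJ-1 KO OVA, with summed FPKM of 13010 to 19270 in WT OVA and 1406 to 4402 in DJ-1 KO OVA. Of the proliferation markers 8 of 10 were higher (75.2 to 110.0 against 143 to 252 FPKM), and of the T cell markers 3 of 10 (153 to 242 against 229 to 486 FPKM). Of 6 B cell markers 3 were lower (277 to 368 against 91.4 to 228 FPKM). Macrophage markers split, with 2 higher and 2 lower of 10 (16440 to 21170 against 4652 to 8752 FPKM). Unlike these sums, their mean log2 level overlapped, at 6.49, 6.13 and 6.58 in WT OVA and 5.41, 6.71 and 6.81 in DJ-1 KO OVA. Of 10 general leukocyte markers 1 was lower. Of 8 lung epithelium markers 1 was higher and 1 lower by the test. Their log2 difference was negative for 7 of 8, with a median of -0.89, and their summed FPKM did not overlap (62280 to 139200 in WT OVA against 30940 to 44270 in DJ-1 KO OVA). None of 6 endothelium markers passed the test; all 6 had a negative log2 difference, with a median of -0.68 (86.6 to 127 against 21.3 to 142.5 FPKM). In RNA of mixed lung cells, fewer cells of a type and less RNA per cell cannot be told apart.

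The other genes of the pathway were read from lists beside the same background of 14.2%. Of 16 tested genes for other proteasome parts and partners, 2 were higher and 1 lower, with a median of 0.42. Sem1, the smallest lid subunit, fell from 54.4, 47.5 and 68.8 FPKM to 18.0, 39.0 and 23.8 FPKM (log2 difference -1.12, SE 0.31, limma adjusted p = 0.0392). The shuttle factor Ubqln4 rose from 6.24, 3.74 and 6.82 to 11.5, 9.75 and 10.2 FPKM (0.89, SE 0.26, limma adjusted p = 0.0462), and Rad23b, a shuttle that Rpn1 can dock, from 15.5, 15.3 and 15.4 to 25.1, 21.0 and 24.2 FPKM (0.59, SE 0.17, limma adjusted p = 0.0485). The core maturation factor Pomp was at 31.0 ± 5.89 against 19.4 ± 7.57 FPKM (-0.71, limma adjusted p = 0.104). Without DJ1_KO_OVA_266 Pomp was called lower (-0.997, limma adjusted p = 0.0146), as were 16.8% of all genes. In WT PBS, Ubqln4 stood at 8.53, 5.96 and 10.4 FPKM, a range that held DJ1_KO_OVA_266 and DJ1_KO_OVA_267. Sem1 stood at 46.6, 59.8 and 35.0 FPKM in WT PBS, so that library 3 lay below DJ1_KO_OVA_266. Rad23b, at 15.8, 14.05 and 18.2 FPKM in WT PBS, lay below all knockout libraries.

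None of the 8 regulator genes was called on the authors' scale with all libraries and the filter at 0.2 FPKM. Nfe2l1 was at 25.1 ± 1.11 FPKM in WT OVA and 34.8 ± 4.76 FPKM in DJ-1 KO OVA (0.45, limma adjusted p = 0.192), and Ddi2, the protease that activates its product, had a difference of 0.88 (limma adjusted p = 0.0526). Under other settings Ddi2 was called higher, with a limma adjusted p of 0.0357 by limma-voom, 0.0408 with a mean FPKM of at least 1, 0.0247 with equal FPKM sums and 0.0102 without DJ1_KO_OVA_266. Nfe2l1 was also called higher with equal FPKM sums (1.06, limma adjusted p = 0.0313). Nfe2l2, the oxidative stress factor that DJ-1 is known to stabilise, was at 63.1 ± 5.80 against 50.3 ± 8.19 FPKM (-0.33, limma adjusted p = 0.27). Of 9 ubiquitin and unfoldase genes, the unfoldase Vcp rose from 29.1, 25.8 and 25.2 to 56.8, 49.7 and 68.1 FPKM (1.10, limma adjusted p = 0.0148).

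Of 10 genes of MHC class I processing, 1 was called: Pdia3, an endoplasmic reticulum oxidoreductase of the peptide loading complex, rose from 122, 92.2 and 125 to 216, 225 and 330.1 FPKM (1.17, limma adjusted p = 0.0182). Tap1 and Tap2, the peptide transporter genes beside Psmb8 and Psmb9, had differences of 0.17 and 0.30 (limma adjusted p = 0.669 and 0.271). With equal FPKM sums both were called higher (0.78 and 0.91, limma adjusted p = 0.049 and 0.0265), as were 24.9% of all genes. Of 11 interferon signalling genes, the feedback inhibitor Socs1 rose (1.01, limma adjusted p = 0.0365). Ifng was at 2.97 ± 1.08 against 4.44 ± 2.67 FPKM (limma adjusted p = 0.596), and Irf1 had a difference of -0.48 (limma adjusted p = 0.124). Of the 8 CCT chaperonin genes, a folding machine of similar abundance, Cct8 rose (0.73, limma adjusted p = 0.0302), and the list's median was 0.17. In ovalbumin against saline none of these 6 lists had a call.

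The 7 calls named from these lists on the authors' scale with all libraries depended on single libraries and, in part, on other settings. All 7 were lost by limma without WT OVA 6 and without WT OVA 9; 6 (not Vcp) were lost without WT OVA 5, and 6 (not Socs1) without DJ1_KO_OVA_267. Without DJ1_KO_OVA_263 the calls of Sem1, Ubqln4, Rad23b, Socs1 and Cct8 were lost. The highest limma adjusted p with 1 library left out was between 0.067 (Vcp) and 0.151 (Rad23b). In a fit of the 2 ovalbumin groups alone, Sem1, Ubqln4, Rad23b, Socs1 and Cct8 were not called, with limma adjusted p of 0.0632, 0.0634, 0.0738, 0.0755 and 0.0621. With no filter on low values Sem1, Ubqln4, Rad23b and Socs1 were not called, with limma adjusted p of 0.0888, 0.0964, 0.0595 and 0.0842. The limma adjusted p of Sem1 was 0.0849 with equal FPKM sums, and with the length trend removed those of Ubqln4 and Rad23b were 0.0535 and 0.0905.

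DJ-1 KO OVA was last set against WT PBS, a comparison in which genotype and challenge differ together and which shares its libraries with the other comparisons. No proteasome gene was called by limma, against 8.54% of all genes (4.07% higher and 4.47% lower); 4 members had an unadjusted p under 0.05, against 26.4% of all genes, and limma-voom called 0. The median was -0.01 over the members, with 21 positive and 26 negative. The log2 difference was 0.70 for Psmd2 (SE 0.20, limma adjusted p = 0.0614), 0.78 for Psme4 (SE 0.24, limma adjusted p = 0.0699) and 0.58 for Psmd1 (SE 0.18, limma adjusted p = 0.0703). Knockout libraries lay above every saline library for these 3 genes and for Psmc1, Psmd7, Psmd11 and Psmd12, which makes 7 members, against 12.7% of all genes; 0 members were lower without overlap, against 12.9%. The medians were -0.17 for the 14 core genes, 0.29 for the 11 non-ATPase cap genes and 0.07 for the 6 cap ATPases. The core and non-ATPase medians were 0.13 and 0.58 with equal FPKM sums. With equal FPKM sums 2 members, Psmd2 and Psmd14, were called higher and 0 lower, against 7.82% of all genes (5.42% higher and 2.41% lower). Without DJ1_KO_OVA_266, Psmd1 and Psme4 were called higher and 0 members lower, against 22% of all genes (10.7% higher and 11.3% lower).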

How the data were processed

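RNA of 9 libraries was sequenced from total RNA with an Illumina TruSeq kit, per the labels' protocols. Per the submitters' processing notes, Trimmomatic, HISAT2, HTSeq and the build GRCm38.p6 were used, with versions and roles not given in the sources used here. The deposited table holds FPKM per gene, computed by the authors and tested as such. FPKM multiplied by length was a whole multiple of 1 read for 100% of values (tolerance 0.01 reads); the library size in the authors' FPKM was 0.890 to 1.22 times the recovered total. Tests used limma 3.58.1 in R 4.3.3 with a mean-variance trend on log2(FPKM + 0.5), 1 fit of 3 groups, and Benjamini-Hochberg adjustment over 17716 genes with a mean of at least 0.2 FPKM, threshold 0.05. Differences on this scale understate changes of low genes. The fit was tested on simulated data. Catalytic ratios used exact permutation tests.

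Members, role classes, companion lists and markers were chosen with earlier results of these data known. Values by library are given for catalytic, immunoproteasome, activator, inhibitor and tissue-restricted members, and in other classes for the 3 members with the smallest p and the 1 with the largest p in DJ-1 KO OVA against WT OVA, or their ranges; companion lists give the 3 with the smallest p or fixed names, and some of their genes are not reported here. Alternatives were other pseudocounts and filters, equal FPKM sums, TMM, quantile normalization, a length trend removed, limma-voom on recovered reads, a fit of 2 groups and each library left out.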

Additional observations from a re-analysis of the deposited data

How the results depend on the processing

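No paired analysis was possible because the groups share no replicate numbers. The labels give no batch. In ovalbumin against saline, 0 members were called under every alternative run. Between the ovalbumin groups, 2 members were higher; the count was 13 with equal FPKM sums, 3 under a filter at 1 FPKM (Psmd1 added), 1 in a fit of the 2 groups compared and 0 with no filter on low values, and it ranged from 0 to 3 when each library was left out. No member was lower, except that the count ranged from 0 to 13 when each library was left out, 13 being without DJ1_KO_OVA_266. Against WT PBS, 0 members were higher; the count was 2 with equal FPKM sums, 1 (Psmd2) with quantile normalization, 1 (Psmd2) with the length trend removed, and 0 to 2 when each library was left out. The cause was not tested.

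With equal FPKM sums, which moved the median of all genes by 0.46 between the ovalbumin groups, log2 differences turned to 0.20 for Psmb5, 0.24 for Psmb8, 0.20 for Psmb9, 0.41 for Psmb10, 0.0008 for Psma3, 0.37 for Psmb2, 0.13 for Psmb4, 0.085 for Psmb6, 0.085 for Psmb7, 0.0078 for Psmc6, 0.28 for Nfe2l2 and 0.13 for Irf1. With the length trend removed, Psmb5 was 0.054, Psmb10 0.14, Psmb2 0.18, Psmf1 -0.14 and Tap1 -0.0010; with quantile normalization, Psmb10 was 0.13 and Psmb2 0.10. Leaving out each library in turn also turned the sign for Psmb10, Psma1, Tap1 and Ifng: Psmb10 ranged from -0.52 to 0.0791, Psma1 ranged from -0.0114 to 0.16, Tap1 ranged from -0.0755 to 0.35, Ifng ranged from -0.0002 to 0.92.

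Of the ratios, with the length trend removed Psmb8 to Psmb5 was -0.39 between the ovalbumin groups and -0.12 with the knockout set against WT PBS, Psmb9 to Psmb6 was -0.18 between the ovalbumin groups, and Psmb10 to Psmb7 was 0.11 with the knockout set against WT PBS. Leaving out each library gave Psmb8 to Psmb5 a range from -0.11 to 0.23 for ovalbumin against saline and from -0.12 to 0.22 between the ovalbumin groups, Psmb9 to Psmb6 a range from -0.0137 to 0.28 between the ovalbumin groups, and Psmb10 to Psmb7 a range from -0.19 to 0.0806 with the knockout set against WT PBS. An exact permutation p under 0.1 cannot arise from 3 libraries against 3 or 2 against 3. That smallest p of 0.1 was reached by Psmb10 to Psmb7 between the ovalbumin groups with the length trend removed (0.63), by Psmb9 to Psmb6 with the knockout set against WT PBS with the length trend removed (-0.30), and by Psmb9 to Psmb6 for ovalbumin against saline without WT OVA 9 (-0.40). Low counts limit Psma8, Psmb11, Psme2b and Psmd10.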
